A study of Mus musculus with 12 samples.

Results

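The 9 genes described here belong to bone morphogenetic protein (BMP) signalling and were measured in nuclear RNA of adult mouse cardiomyocytes. They are the ligand genes Bmp2, Bmp4, Bmp6 and Bmp10, the extracellular regulator Bmper, the inhibitory SMAD gene Smad6, and the target genes Id1, Id2 and Id3. They were taken by symbol from a table of 46983 gene symbols, and all 9 were found there. Control libraries came from adult Myh6-MCM mice given tamoxifen, and YAP5SA libraries from adult Yap5SA+/tg; Myh6-MCM mice given tamoxifen, so both groups carried the Cre transgene and received the drug. Myh6-MCM is a tamoxifen-inducible Cre under control of the Myh6 (cardiac myosin) promoter, and YAP5SA is a form of the co-activator YAP in which inhibitory serines are replaced by alanine. RNA came from nuclei bound to beads through PCM1, a protein used to select cardiomyocyte nuclei. Each group had 2 libraries. The labels give no tamoxifen dose or timing and do not say that the 2 libraries of a group came from separate animals, so p-values here reflect library-to-library spread that could be technical.

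BMP ligands are secreted dimers that bring together type I and type II serine/threonine kinase receptors, which then phosphorylate SMAD1, SMAD5 and SMAD9. These SMADs join SMAD4 and activate target genes, among them Id1, Id2 and Id3, whose products bind basic helix-loop-helix factors and block their binding to DNA, and Smad6, whose product feeds back to dampen the pathway. Secreted antagonists such as noggin hold the ligands away from their receptors. In the heart, BMP2, BMP4 and BMP10 are known for their parts in valve, outflow tract and chamber development, and endothelial cells are a well known site of Bmp6, Smad6, Id1 and Id3 expression.

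Total counts ran from 7850661 to 15012122 per library. Levels are given as CPM, read counts scaled to a common effective library total. The effective total is a library's summed count over the tested genes times a scaling factor (TMM). Where a library had no count of a gene, up to 3 counts (0.202 to 0.397 CPM, depending on the library) remain possible from counting error alone. The control libraries differed from each other more than the YAP5SA libraries did, with a median absolute difference of 0.41 against 0.16 on the log2 CPM scale over tested genes. The 8 cardiomyocyte markers had summed levels of 32643 and 66272 CPM in control and 22890 and 24469 CPM in YAP5SA, and none was at 0. Their median log2 fold change was -1.09. Of these sums, Ttn made up 19901 and 48149 CPM in control and 15501 and 16678 CPM in YAP5SA. Markers of other heart cells were also present. The 12 macrophage markers summed to 792 and 590 CPM in control and 1441 and 1730 CPM in YAP5SA, and 5 of them rose with edgeR. The 11 endothelial markers summed to 2155 and 1378 CPM in control and 1058 and 981 CPM in YAP5SA. None of the 11 was at 0 in any library, 2 fell (Vwf and Robo4), and their median log2 fold change was -0.86. The 9 smooth muscle and pericyte markers summed to 1857 and 1621 CPM in control and 1666 and 1799 CPM in YAP5SA, and none was at 0. Acta2 made up 158 and 97.5 CPM of these sums in control and 712 and 917 CPM in YAP5SA. Of these 9 markers, 1 rose (Acta2, 6.37-fold) and 0 fell, and their median log2 fold change was -0.78. The 10 fibroblast markers summed to 8209 and 6669 CPM in control and 6384 and 7969 CPM in YAP5SA. The median log2 fold change of the fibroblast markers was -0.05, with 5 positive and 5 negative values, and 1 of them rose (Lum, 2.24-fold) and 0 fell. In such bulk samples fewer cells of a type and less RNA per cell cannot be told apart.

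Of the 9 genes, Id3 fell in YAP5SA and the others did not pass the test. The test was edgeR's quasi-likelihood test of YAP5SA against control with Benjamini-Hochberg adjustment over 17715 genes and a threshold of 0.05. Bmp10 had too few counts to enter it. Of the 8 that did, 1 fell (0.999% of all tested genes fell) and 0 rose (3.12% of all tested genes rose, and 4.12% rose or fell). At an unadjusted p under 0.05 the 8 held 3 lower genes, Smad6, Id1 and Id3 (10.9% of all tested genes were lower at that level), and 0 higher ones (12.7%). A negative log2 fold change was seen for 7 of the 8, against 54.3% of all tested genes, and the median was -0.78 against -0.06 over all tested genes. In 5 of the 8 (Bmp2, Bmp6, Smad6, Id1 and Id3) both YAP5SA libraries lay below both control libraries, which held for 28.3% of all tested genes, and in 0 of the 8 did both lie above (28.1%).

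**Figure D1:**
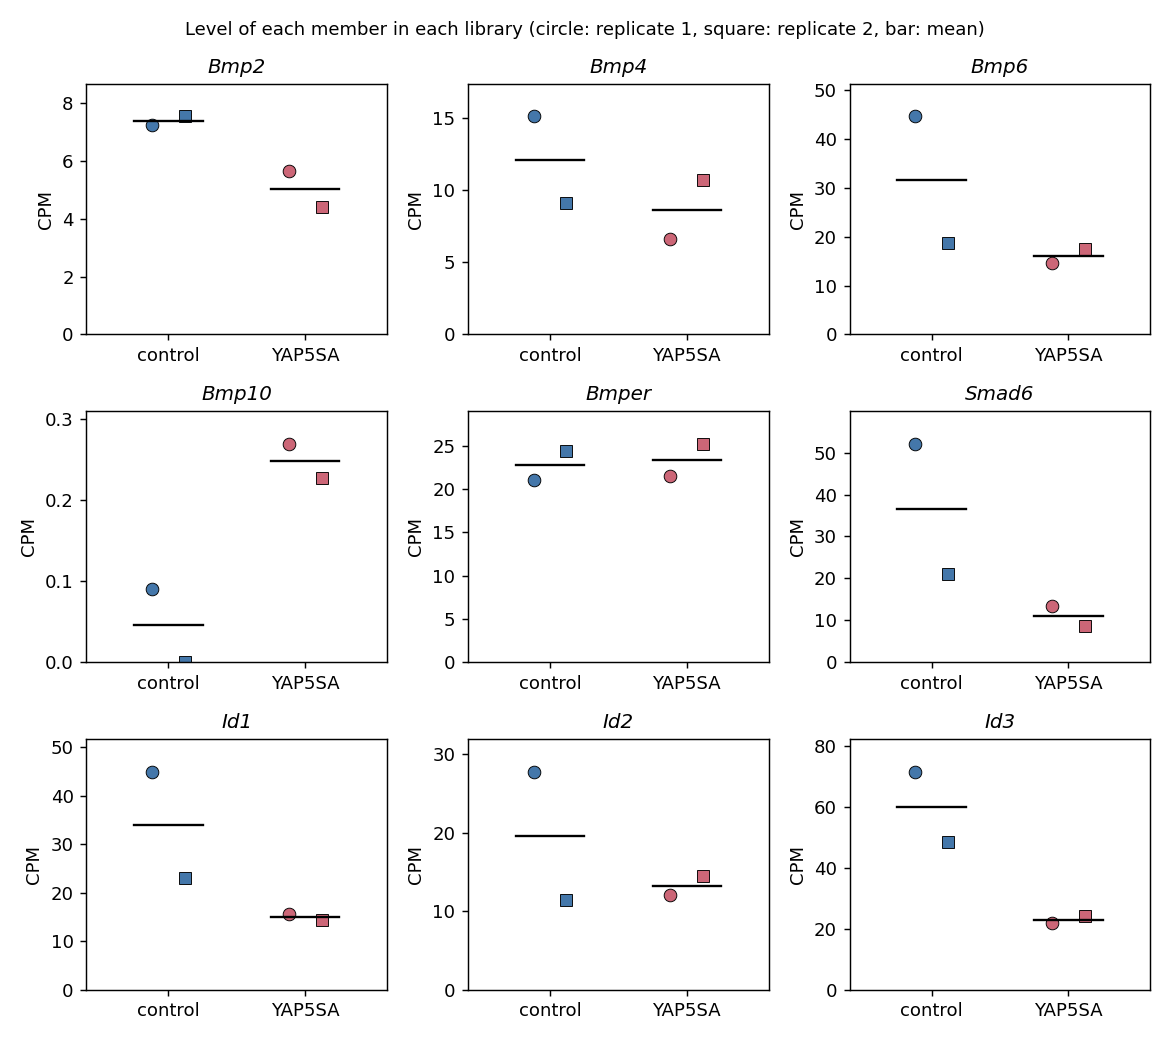
Level of each of the 9 genes (CPM, linear axes from 0) in the 2 control and 2 YAP5SA libraries, with circles for replicate 1, squares for replicate 2 and a bar for the group mean. Id3 is at 71.7 and 48.5 CPM in control and 22.0 and 24.1 CPM in YAP5SA, while Bmper lies at 21.1 to 25.2 CPM in all 4 libraries.

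The Id genes encode inhibitors of differentiation that lack a DNA-binding region. Id3 (chromosome 4, 136143497 to 136145755, plus strand, mm10) was at 71.7 and 48.5 CPM in control replicates 1 and 2 and at 22.0 and 24.1 CPM in YAP5SA replicates 1 and 2. Both YAP5SA libraries were below both control libraries, and the gap between the groups was wider than that between the control libraries. Its control mean was 60.1 ± 16.4 CPM against 23.1 ± 1.44 CPM in YAP5SA (SD, n = 2). Id3 fell 2.61-fold (log2 fold change -1.38, SE 0.238, edgeR adjusted p = 0.0456). Leaving out YAP5SA replicate 1 gave a log2 fold change of -1.29 and leaving out YAP5SA replicate 2 gave -1.43, but either fit lost the call (adjusted p = 0.292 and 0.399).

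Id1 (chromosome 2, 152736251 to 152737410, plus strand) was at 45.0 and 23.1 CPM in control and at 15.6 and 14.4 CPM in YAP5SA. The groups did not overlap, yet the control libraries were further apart than control replicate 2 was from either YAP5SA library. Id1 had a log2 fold change of -1.19 (SE 0.338, edgeR adjusted p = 0.118), and with DESeq2 it was -1.13 (adjusted p = 0.0517). Without control replicate 1 it was -0.61 (adjusted p = 0.00627) and without control replicate 2 it was -1.54 (adjusted p = 3.24e-19). In these fits the lone control library was assumed to vary like the YAP5SA pair.

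Id2 (chromosome 12, 25093799 to 25097140, minus strand) did not separate the groups, with 27.8 and 11.4 CPM in control and 12.1 and 14.4 CPM in YAP5SA. Control replicate 1 alone stood high, and control replicate 2 was the lowest of the 4 libraries. For Id2 the log2 fold change was -0.58 (SE 0.43, edgeR adjusted p = 0.46), and it was 0.23 without control replicate 1 and -1.04 without control replicate 2.

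Smad6 (chromosome 9, 63953076 to 64022059, minus strand), which encodes an inhibitory SMAD that blocks BMP receptor signalling, had the most negative log2 fold change of the 8 tested genes. It was at 52.1 and 21.02 CPM in control and at 13.3 and 8.66 CPM in YAP5SA. The groups did not overlap, and control replicate 1 stood far above control replicate 2. Its log2 fold change was -1.74 (SE 0.475) and missed the threshold with edgeR (adjusted p = 0.108). It passed with DESeq2 (log2 fold change -1.69, adjusted p = 0.00792) and with the replicate number as a block (-1.64, adjusted p = 0.0448; 0.632% of all genes fell in it), a fit in which Id3 missed it (-1.36, adjusted p = 0.0583). Without control replicate 1 the value for Smad6 was -0.92 and without control replicate 2 it was -2.20, both past the threshold (adjusted p = 0.000106 and 1.79e-37). Smad7, which encodes the other inhibitory SMAD and answers to TGF-beta as well, was at 163 and 92.3 CPM in control and 196 and 183 CPM in YAP5SA (log2 fold change 0.57, adjusted p = 0.309). Smad7 rose when control replicate 1 was left out (log2 fold change 1.04).

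Of the ligand genes 0 passed with edgeR, DESeq2 or limma-voom. Over all tested genes 3.12%, 5.72% and 3.12% rose and 0.999%, 2.82% and 0.903% fell in these fits. With edgeR 0 of the 3 tested had an unadjusted p under 0.05, where 10.9% of all tested genes were lower and 12.7% higher. With 3 genes, nothing is read from these counts. Bmp6 (chromosome 13, 38345107 to 38500302, plus strand) was at 44.6 and 18.8 CPM in control and at 14.6 and 17.5 CPM in YAP5SA. Control replicate 1 stood far above the other 3 libraries, which lay within 14.6 to 18.8 CPM. Bmp6 had a log2 fold change of -0.99 (SE 0.418, edgeR adjusted p = 0.228). Without control replicate 1 it was -0.22 (adjusted p = 0.398) and without control replicate 2 it was -1.45 (adjusted p = 4.07e-17).

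Bmp2 (chromosome 2, 133552159 to 133562885, plus strand), a ligand gene needed for the cushions that form the valves, was at 7.25 and 7.53 CPM in control and at 5.66 and 4.40 CPM in YAP5SA. Its control libraries were close together and above both YAP5SA libraries. Bmp2 had a log2 fold change of -0.55 (SE 0.286, edgeR adjusted p = 0.308). Bmp4 (chromosome 14, 46383520 to 46390669, minus strand) was at 15.1 and 9.12 CPM in control and at 6.60 and 10.7 CPM in YAP5SA, so the groups overlapped (log2 fold change -0.50, SE 0.372, edgeR adjusted p = 0.462). Exons of Bmp4 overlap those of Gm15217 on the other strand, and exons of Bmp6 those of Txndc5. The sources used here do not give the strand setting of the counting, so reads of these pairs cannot be told apart. No gene overlaps Bmp2, Bmp10, Bmper, Smad6, Id1, Id2 or Id3 in the GENCODE M21 annotation.

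Bmp10 (chromosome 6, 87428994 to 87437677, plus strand), which encodes a ligand made in the embryonic trabecular and the adult atrial myocardium, was close to absent. Control replicates 1 and 2 held 1 and 0 counts of it, and YAP5SA replicates 1 and 2 held 4 and 3. The ratio of summed counts was 4.65 with a 95% exact binomial counting interval of 0.597 to 210, so no difference was detectable at this depth. Of the 7 atrial markers, Sln was at 0 counts in control and at 1 and 3 counts in YAP5SA. Myl7 was at 1.32 to 3.37 CPM, Kcnj3 at 2.45 to 7.53, Dkk3 at 3.80 to 5.46 and Gja5 at 6.88 to 9.97 CPM. Nppa was at 70.0 and 225 CPM in control and 47.5 and 84.1 CPM in YAP5SA (log2 fold change -1.16, edgeR adjusted p = 0.294). The atrial marker Myl4 rose 3.84-fold (adjusted p = 0.0284), and the other 5 atrial markers tested did not pass.

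Bmper (chromosome 9, 23223076 to 23485200, plus strand) encodes a secreted BMP-binding protein that can act for or against the ligands. It was at 21.1 and 24.5 CPM in control and at 21.6 and 25.2 CPM in YAP5SA. The libraries of the 2 groups interleaved, with a log2 fold change of 0.04 (SE 0.193, edgeR adjusted p = 0.923). Over the 10 alternative fits it ran from -0.06 to 0.18, and none called it.

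Levels of different genes were compared per kilobase of merged GENCODE M21 exons, on the assumption that exonic reads were counted, which is not stated. In control the order was Id3 (33.6 ± 9.17 CPM per kb), Id1 (29.4 ± 13.3), Smad6 (11.4 ± 6.85), Bmp6 (8.13 ± 4.69), Id2 (8.03 ± 4.77), Bmp4 (5.39 ± 1.89), Bmper (4.71 ± 0.4903), Bmp2 (2.08 ± 0.0575) and Bmp10 (0.0101 ± 0.0143; SD, n = 2). Neighbours in that order from Id3 to Bmper were closer than their SDs, apart from Id1 and Smad6, and Bmper and Bmp2 were further apart. In YAP5SA the levels were 13.0 ± 0.734 CPM per kb for Id1, 12.9 ± 0.805 for Id3, 5.43 ± 0.686 for Id2, 4.84 ± 0.534 for Bmper, 4.11 ± 0.528 for Bmp6, 3.85 ± 1.29 for Bmp4, 3.42 ± 1.02 for Smad6, 1.42 ± 0.2498 for Bmp2 and 0.0554 ± 0.00657 for Bmp10. From Id1 to Bmp2 in that order, Id3 and Id2, Bmper and Bmp6, and Smad6 and Bmp2 were further apart than their SDs. Id1 and Id3 led in both groups, while Smad6 came next after them in control and came after Id2, Bmper, Bmp6 and Bmp4 in YAP5SA.

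RefSeq promoters (GRCm38.p6, the mm10 assembly; 250 bases before to 50 after the start) matched 7 of the 9 genes, leaving out Bmp2 and Id1. They were searched on both strands for GGCGCC, a GC-rich element bound by SMAD1 and SMAD5, for GTCTAGAC, the palindromic SMAD element, and for the TEAD element GGAATG, through which YAP is brought to DNA and which reads as its reverse complement in Id3. The motifs do not overlap one another in these windows. Each of the 3 motifs had 1 match among the 7 promoters, and the matches are shown because they lie in Smad6, Id2 and Id3, with the motif in capitals within 30 bases of the gene's own strand, 5′ to 3′.
Smad6 (chr9:64022045-64022074, minus strand): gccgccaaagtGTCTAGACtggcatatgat
Id2 (chr12:25096306-25096335, minus strand): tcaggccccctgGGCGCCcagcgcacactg
Id3 (chr4:136143607-136143636, plus strand): tcagcgcttcctCATTCCtcgcatccgagg
GTCTAGAC of Smad6 spans the RefSeq transcription start, GGCGCC of Id2 begins 231 bases before it, and CATTCC of Id3 begins 203 bases before it. The Id3 match lies within the GENCODE span of its gene (136143497 to 136145755). The Id2 match also lies within the GENCODE span of its gene (25093799 to 25097140), which begins upstream of the RefSeq start. Among all 32851 promoters of the table, 0.213% held GTCTAGAC, 11.9% GGCGCC and 14.7% GGAATG. These are matches of letters, not measured binding sites.

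Control replicate 1 was the highest library for Bmp4, Bmp6, Smad6, Id1, Id2 and Id3. Over the 8 tested genes the median log2 ratio of control replicate 1 to control replicate 2 was 0.85, against 0.04 over all tested genes. It was 0.29 over the 11 endothelial, 0.69 over the 9 smooth muscle and pericyte and 0.42 over the 12 macrophage markers. For the 10 fibroblast markers it was 0.16, for the 8 cardiomyocyte markers -0.49 and for the 6 atrial markers tested -0.36. Between the YAP5SA libraries the median over the 8 tested genes was -0.18, against 0.00089 over all tested genes. The summed endothelial level was likewise highest in control replicate 1 and lowest in the YAP5SA libraries, so each gene was also expressed as a percent of that sum, a measure chosen after the data were seen. Id3 was at 3.33% and 3.52% of the endothelial sum in control and at 2.08% and 2.45% in YAP5SA, and these did not overlap. Smad6 was at 2.42% and 1.53% in control and 1.25% and 0.883% in YAP5SA, and Id1 at 2.09% and 1.68% against 1.48% and 1.47%, both again without overlap. On this measure 4.86% of all tested genes were lower without overlap and 63.6% were higher; the sum itself was lower in YAP5SA.

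On the same measure the other tested genes overlapped between the groups or lay higher in YAP5SA. Bmp6 was at 2.07% and 1.36% of the endothelial sum in control and 1.38% and 1.78% in YAP5SA, and Bmp2, Bmp4 and Id2 also overlapped between the groups. Bmper was higher, like most genes on this measure, at 0.979% and 1.78% against 2.04% and 2.57%. With 2 libraries a group, no exact permutation test of such a ratio can reach the threshold, and none was made. How far endothelial, smooth muscle or pericyte nuclei take part in the levels of these genes was not tested beyond these values.

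**Figure D2:**
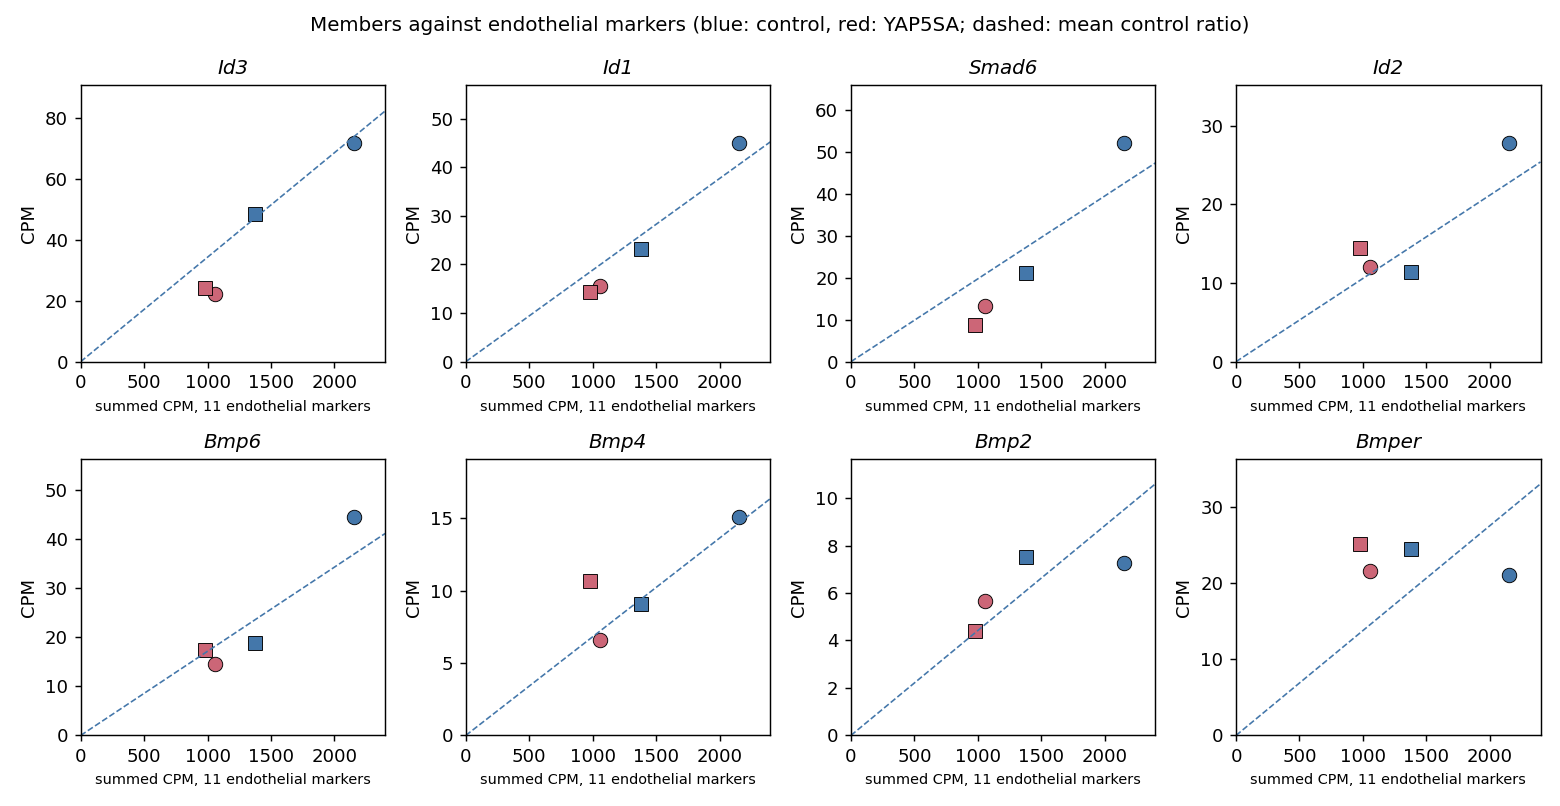
Level of each of the 8 tested genes (CPM, linear axis) against the summed CPM of 11 endothelial markers in each library, with control in blue, YAP5SA in red, circles for replicate 1, squares for replicate 2 and a dashed line at the mean control ratio. Both YAP5SA points lie under the line for Id3, Id1 and Smad6 and above it for Bmp2, Id2 and Bmper.

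The wider pathway was described from a list of 70 other genes of the table, sorted by role, of which 55 were tested. With edgeR 3 of the 55 rose (Nog, Crim1 and Rgma; 3.12% of all tested genes rose) and 0 fell (0.999%). The median log2 fold change was -0.12 against -0.06 over all tested genes. At an unadjusted p under 0.05 there were 7 higher genes (12.7% of all tested genes) and 9 lower ones (10.9%), and 4 fell with DESeq2 (Hfe2, Smad9, Hey1 and Atoh8; 2.82%) and 1 with limma-voom (Hfe2; 0.903%).

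Among 11 tested antagonists and binders, Nog, which encodes noggin, the high-affinity antagonist of BMP2 and BMP4, was at 1.54 and 0.132 CPM in control and at 53.5 and 54.1 CPM in YAP5SA. Nog rose 57.2-fold (edgeR adjusted p = 0.0250), and its call held in all 10 alternative fits, with a log2 fold change of 5.84 as reported, 8.57 without control replicate 1 and 5.15 without control replicate 2. Crim1, which encodes a transmembrane protein that binds BMPs and limits their release, was at 118 and 167 CPM in control and 431 and 464 CPM in YAP5SA and rose 3.15-fold (log2 fold change 1.65, SE 0.237, adjusted p = 0.0353). Exons of Crim1 overlap those of Fez2 on the other strand. Without YAP5SA replicate 1 or 2 the call of Crim1 was lost (adjusted p = 0.162 and 0.307).

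Other antagonists that bind BMPs directly did not pass. Chrd, which encodes chordin, was at 1.89 to 2.81 CPM over the 4 libraries, and Twsg1, which encodes twisted gastrulation, a partner of chordin, at 86.3 to 109 CPM. Fst, which encodes follistatin, was at 9.51 and 3.83 CPM in control and 3.23 and 3.80 CPM in YAP5SA (log2 fold change -0.94, adjusted p = 0.304; -1.40 and past the threshold without control replicate 2), and Chrdl1 at 1.27 and 1.06 against 0.472 and 0.3797 CPM (log2 fold change -1.43, adjusted p = 0.159). Grem1 had 3 counts or fewer in each library.

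All 13 receptor and co-receptor genes were tested, and Rgma alone passed (4.12% of all tested genes rose or fell). Rgma, which encodes a membrane-anchored BMP co-receptor of the repulsive guidance family, was at 25.4 and 27.8 CPM in control and 61.7 and 60.0 CPM in YAP5SA and rose 2.29-fold (log2 fold change 1.19, SE 0.163, adjusted p = 0.0321). Its call was lost with the replicate block (adjusted p = 0.0562) and without YAP5SA replicate 1 or 2 (adjusted p = 0.2497 and 0.365), and its exons overlap those of A730056A06Rik on the other strand. The related co-receptor gene Rgmb was at 23.0 and 20.0 against 33.8 and 35.3 CPM (log2 fold change 0.68, adjusted p = 0.0955). The third of that family, Hfe2, which encodes hemojuvelin, was at 48.8 and 58.2 against 26.2 and 28.3 CPM and narrowly missed the threshold (log2 fold change -0.97, SE 0.179, adjusted p = 0.0504), which it passed with DESeq2, limma-voom and 4 further alternatives. Rgma and Rgmb were above both control libraries in both YAP5SA libraries, and Hfe2 below both.

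Of the 7 signalling receptor genes 0 passed with edgeR, DESeq2 or limma-voom. Over all tested genes 3.12%, 5.72% and 3.12% rose and 0.999%, 2.82% and 0.903% fell in these fits. With edgeR 0 of the 7 had an unadjusted p under 0.05, where 10.9% of all tested genes were lower and 12.7% higher. With 7 genes, nothing is read from these counts. The type II receptor gene Bmpr2 was at 458 and 335 CPM in control and 447 and 454 CPM in YAP5SA, and the type I receptor gene Bmpr1a at 135 and 197 against 181 and 184 CPM. The log2 fold change was 0.19 for Bmpr2 (SE 0.231), 0.14 for Bmpr1a (SE 0.228), -0.05 for Acvr1 (SE 0.16), -0.23 for Acvrl1, the endothelial type I receptor gene (SE 0.216), -0.35 for Acvr2a (SE 0.1801) and 0.54 for Acvr2b (SE 0.415). Bmpr1b, at 7.70 and 1.45 CPM in control and 1.89 and 1.22 CPM in YAP5SA, had a log2 fold change of -1.58 with an SE of 0.782. For the co-receptor genes Eng and Tgfbr3 it was -0.27 (SE 0.243) and -0.25 (SE 0.246), and for the decoy receptor gene Bambi -0.03 (SE 0.436), with 16.8 and 43.4 CPM in control and 29.3 and 29.4 CPM in YAP5SA. Several of these values depended on 1 control library. Without control replicate 1, Bmpr2 (0.44), Acvr2b (1.19), Acvr2a (-0.48) and Bambi (-0.55) passed the threshold, and without control replicate 2, Bmpr1a (0.47), Bmpr1b (-2.26), Acvrl1 (-0.39), Eng (-0.50), Tgfbr3 (-0.50) and Bambi (0.84) did. In these fits 18.8% and 19.7% of all genes rose and 17.4% and 18.6% fell, so nothing is read from the number of receptor genes called. Bambi had opposite signs in the 2 fits.

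**Figure D3:**
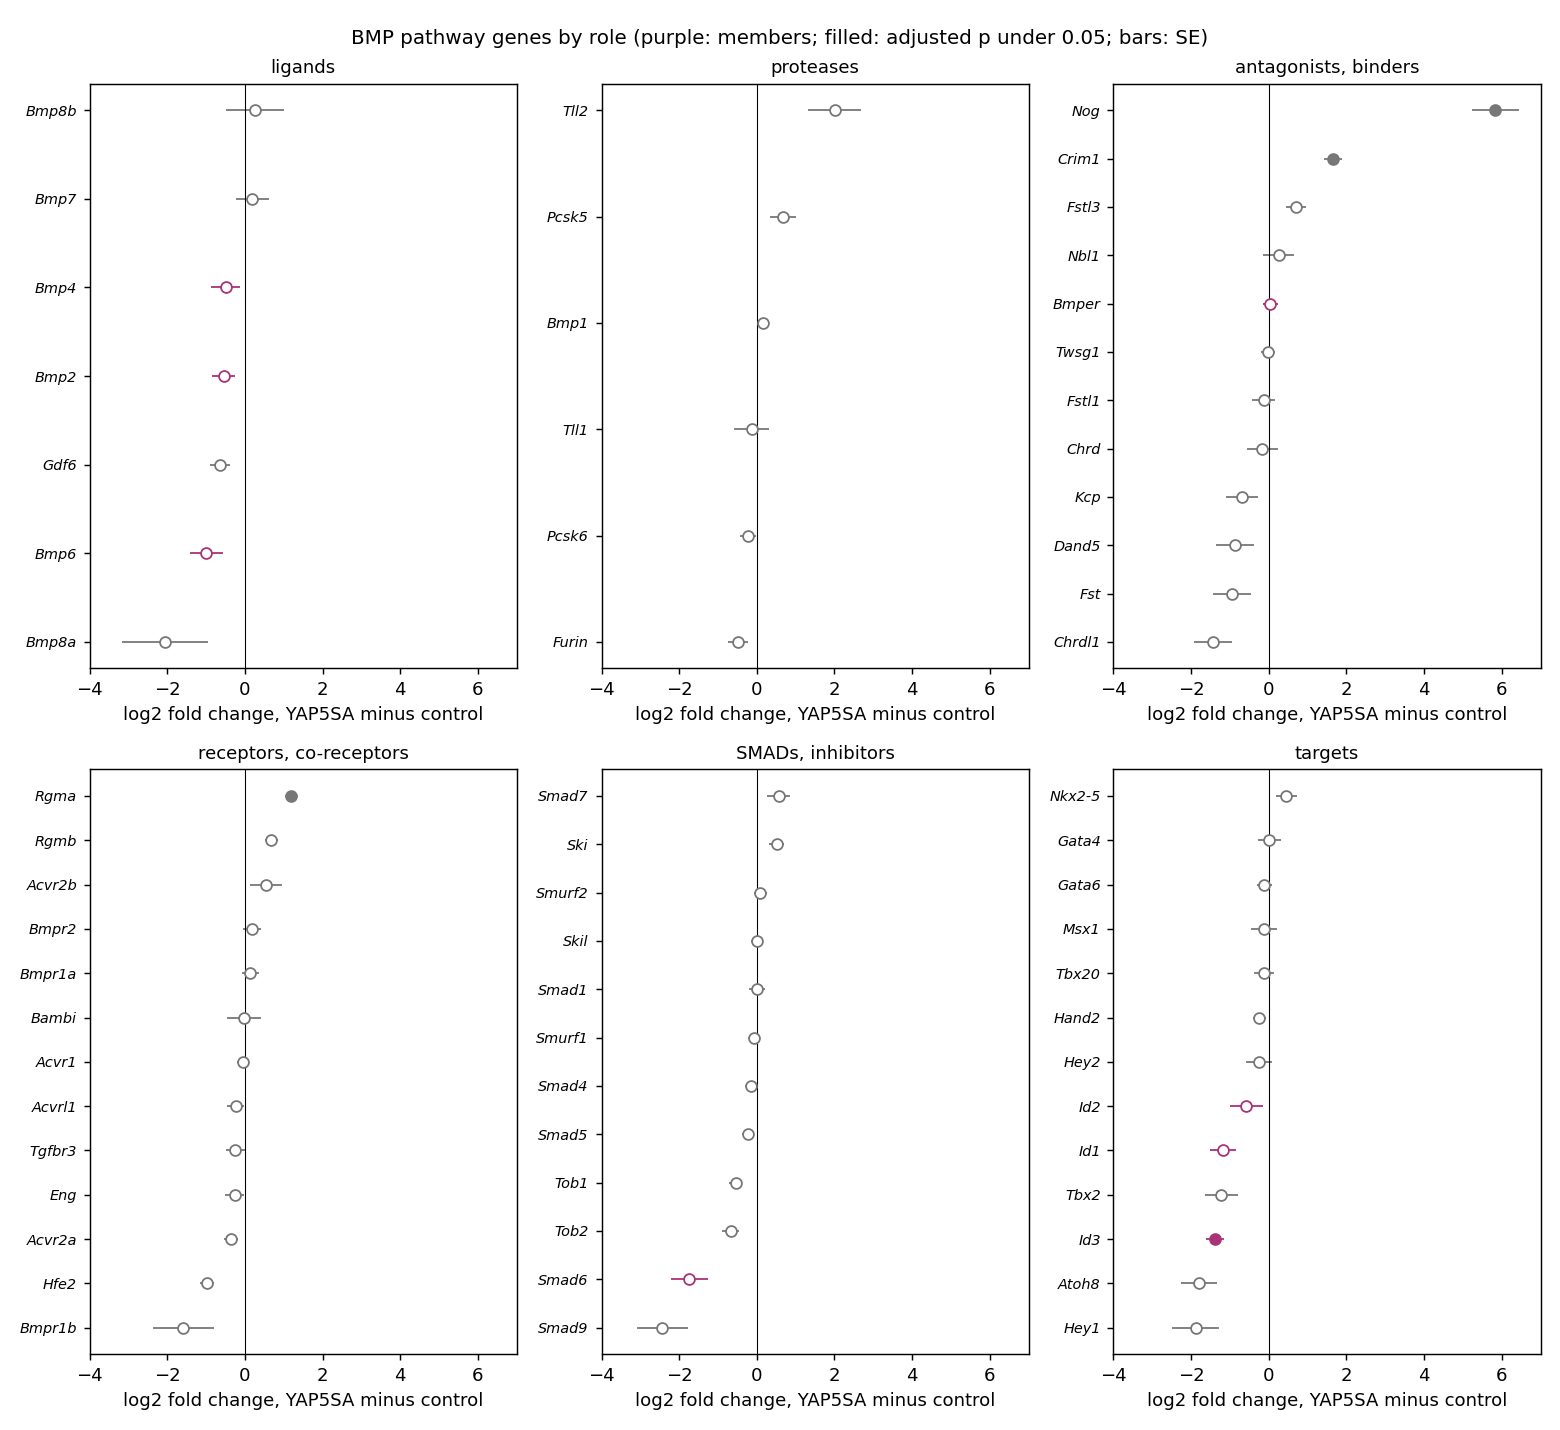
Log2 fold change (YAP5SA minus control, with SE bars) of the 8 tested genes of the set (purple) and the 55 other tested pathway genes (grey), in panels by role, with filled points for an adjusted p under 0.05. Filled points are Id3 on the lower side and Nog, Crim1 and Rgma on the higher side.

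The genes of the SMADs that carry the signal did not pass. Smad1 was at 52.1 and 68.9 CPM in control and 62.0 and 59.3 CPM in YAP5SA (log2 fold change 0.01), Smad5 at 104 and 119 against 98.7 and 91.7 CPM (-0.23) and Smad4 at 90.8 and 83.0 against 78.2 and 78.6 CPM (-0.15), with adjusted p from 0.447 to 0.9903. Smad9 was at 5.80 and 1.85 CPM in control and 0.674 and 0.759 CPM in YAP5SA, a log2 fold change of -2.43 (SE 0.648, edgeR adjusted p = 0.103), which passed with DESeq2, with no filter on low counts and, at -2.97, without control replicate 2. Smad1, Smad4, Smad5, Smad7, Smad9, Atoh8, Hey1 and Tbx2 were singled out after their values were seen.

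Of 10 other target genes tested, 0 passed with edgeR (4.12% of all tested genes rose or fell). At an unadjusted p under 0.05 with edgeR there were 3 lower (Atoh8, Hey1 and Tbx2; 10.9% of all tested genes) and 0 higher ones (12.7%). The median log2 fold change of the 10 was -0.18, against -0.06 over all tested genes. Msx1, Tbx20, Hey2, Gata4, Gata6, Nkx2-5 and Hand2 ran from -0.24 (Hey2) to 0.46 (Nkx2-5). Nkx2-5 was at 27.0 and 45.9 CPM in control and 49.6 and 50.1 CPM in YAP5SA. Atoh8, a transcription factor gene induced by BMP in endothelial cells, was at 29.3 and 13.0 CPM in control and 7.48 and 4.71 CPM in YAP5SA (log2 fold change -1.80, SE 0.461, adjusted p = 0.0955). Atoh8 passed with DESeq2 (adjusted p = 0.00782), with no filter on low counts and with the replicate block (log2 fold change -1.72, adjusted p = 0.0468). Hey1, which is also a Notch target, was at 18.0 and 5.15 against 3.17 and 3.19 CPM (log2 fold change -1.88, adjusted p = 0.146), and Tbx2, a T-box gene of the atrioventricular canal, at 15.03 and 7.01 against 4.45 and 5.09 CPM (log2 fold change -1.22, adjusted p = 0.162). Like Id1 and Smad6, Atoh8, Hey1 and Tbx2 were highest in control replicate 1 and lower in both YAP5SA libraries than in either control library. As a percent of the endothelial sum, Atoh8 (1.36% and 0.940% against 0.707% and 0.4801%) and Hey1 (0.836% and 0.374% against 0.299% and 0.325%) stayed lower without overlap, and Tbx2 overlapped. Without control replicate 1 Atoh8 fell (-1.07; 17.4% of all genes fell), and without control replicate 2 Atoh8 (-2.22), Hey1 (-2.46) and Tbx2 (-1.62) did (18.6%).

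The 3 genes nearest to Id3 in pattern, by the root mean square difference of centred log2 CPM over the 4 libraries among 12173 genes with a mean of at least 5 CPM, were Fmo1 (0.0414), Ckm (0.0490) and Igdcc4 (0.0491). Fmo1, a flavin monooxygenase gene, was at 48.2 and 32.1 CPM in control and 15.6 and 15.8 CPM in YAP5SA. Ckm, the muscle creatine kinase gene, was at 179 and 131 against 55.5 and 60.0 CPM, and Igdcc4, a gene of the immunoglobulin superfamily, at 22.5 and 15.5 against 6.94 and 6.99 CPM. Since they were chosen for their likeness to Id3 in the same 4 libraries, no test of them is given. Exons of Ckm overlap those of A930016O22Rik on the other strand.

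Which of the 9 genes were called varied with the fit. Without control replicate 1 the calls were Smad6, Id1 and Id3 (17.4% of all genes tested in that fit fell), and without control replicate 2 they were Bmp4 (log2 fold change -0.78), Bmp6, Smad6, Id1, Id2 and Id3 (18.6%). Without YAP5SA replicate 1 or YAP5SA replicate 2 there were 0 calls (0.0266% and 0%). DESeq2 called Smad6 and Id3 (2.82%), and edgeR with no filter on low counts called Bmp6, Smad6, Id1 and Id3 (5.53%). Id3 was the single call with limma-voom (0.903%), with library totals in place of TMM (1.20%) and with a stricter filter on low counts (1.53%). Log2 fold changes of Bmp2, Bmp4, Bmp6, Smad6, Id1 and Id3 were negative in all 10 alternative fits. In none of the 10 did any of the 8 genes rise, nor did Bmp10 in the fit with no filter, while the share of all genes that rose was 3.71% with library totals, 5.72% with DESeq2, 3.12% with limma-voom, 5.65% with no filter, 3.93% with the stricter filter and 1.81% with the replicate block. It was 18.8% and 19.7% without control replicate 1 and 2, and 0.362% and 0.143% without YAP5SA replicate 1 and 2.

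**Figure D4:**
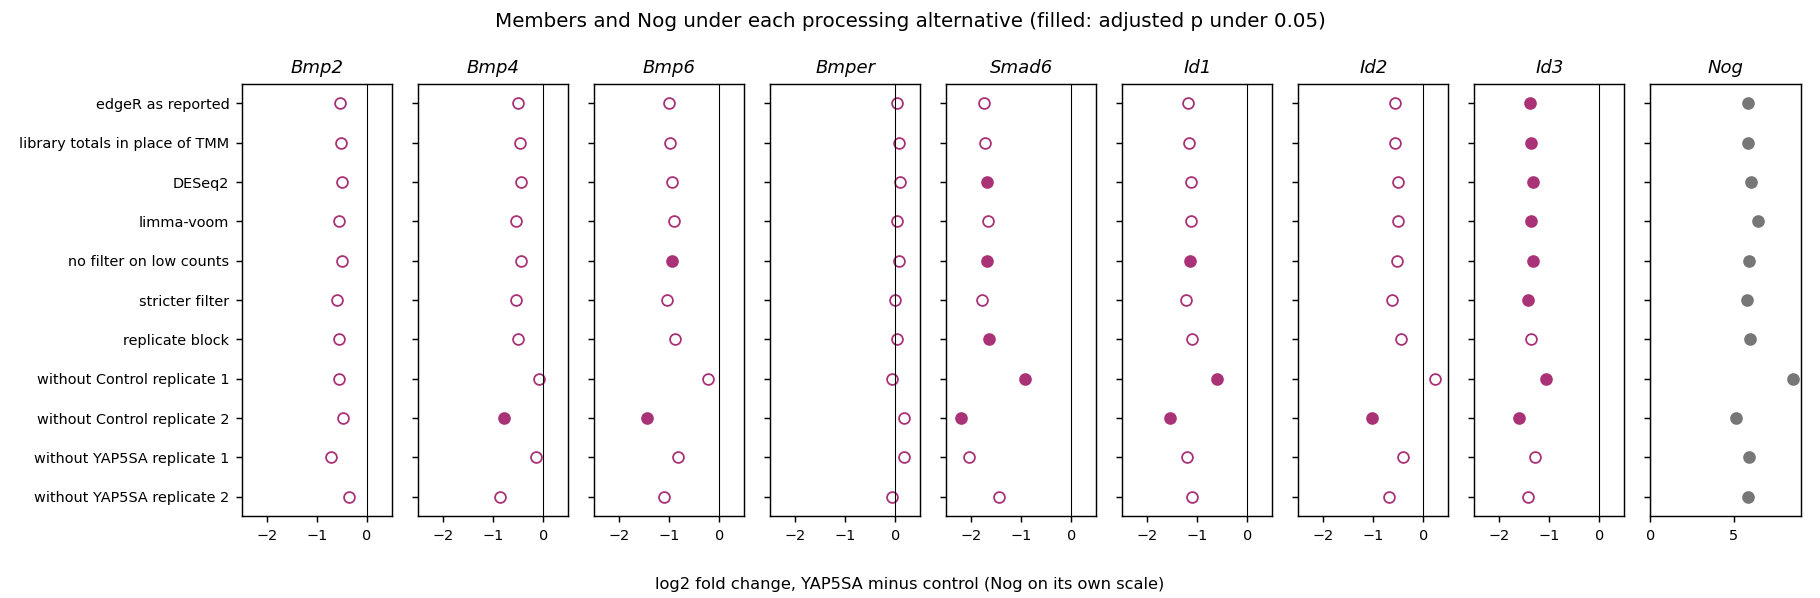
Log2 fold change (YAP5SA minus control) of the 8 tested genes and Nog in the fit reported here and in 10 alternatives, 1 row each, with filled points for an adjusted p under 0.05 and a separate scale for Nog. Id3 stays between -1.60 and -1.07 and Nog is filled in every row, while Bmp4, Bmp6 and Id2 lie near 0 without control replicate 1.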

How the data were processed

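The table deposited by the authors holds whole-number counts, not normalized, for each gene symbol in 4 nuclear RNA-seq libraries. Reads were mapped to mm10 with STAR, per the labels' protocols, from stranded paired-end libraries depleted of ribosomal RNA. The sources used here do not give the counting program, strand setting, annotation or versions. ATAC-seq and 4C-seq samples were not analysed here.

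Genes were kept by filterByExpr (minimum count 10; 17715 genes) with TMM scaling. With edgeR 4.0.16 in R 4.3.3, glmQLFTest compared 2 YAP5SA with 2 control libraries, with no replicate block. SE is the absolute log2 fold change over the root of F. Alternatives were library totals, DESeq2 1.42.0, limma-voom (limma 3.58.1), no filter, a minimum count of 50, the replicate block, and leaving out each library. Both replicate pairs differed beyond sampling noise (59.8 and 15.1 chi-square units per gene), so each library counted as 1 sample.

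The 9 genes and the lists were chosen with earlier results of these data known. Genes named are the 9, the listed pathway genes past the threshold, direct antagonists, receptors and co-receptors, and the 3 nearest in pattern to Id3; others were chosen after their values were seen. Coordinates are from GENCODE M21 and promoters from RefSeq (GRCm38.p6).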

Additional observations from a re-analysis of the deposited data

How the results depend on the processing

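Each group had 2 libraries. The fall of Id3 passed in 7 of 10 alternatives. The number of the 9 BMP genes that fell was 1 as reported, 2 with DESeq2, 4 with no filter on low counts, and 0 to 6 when 1 library was left out. Of the other pathway genes 3 rose as reported, 6 with no filter, and 1 to 11 when 1 library was left out. The number of those that fell was 0 as reported, 4 with DESeq2, 1 each with limma-voom, with the stricter filter and with the replicate block, 7 with no filter, and 0 to 18 when 1 library was left out. Over all tested genes 553 rose and 177 fell as reported, 1069 and 527 with DESeq2, 1727 and 1689 with no filter, 321 and 112 with the replicate block, and 27 to 3749 and 0 to 3554 when 1 library was left out (most without control replicate 2, fewest without YAP5SA replicate 2). The shares of all tested genes that rose or fell in each fit are given above. Nothing about the BMP genes alone is read from these counts. The cause of the differences between fits was not tested.

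Same-numbered libraries share only a number in the labels, and their deviations from the group means had a correlation of -0.0917 over tested genes, which are not independent. With the replicate block 1 of the 9 genes fell (Smad6 in place of Id3), 2 other pathway genes rose and 1, Atoh8, fell.

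Some genes that were not called as reported changed sign, in log2 fold change, when 1 library was left out. The range was -0.058 to 0.18 for Bmper, -1.04 to 0.23 for Id2, -0.35 to 0.12 for Chrd, -0.14 to 0.18 for Twsg1, -0.098 to 0.47 for Bmpr1a, -2.26 to 0.11 for Bmpr1b, -0.10 to 0.053 for Acvr1, -0.50 to 0.065 for Eng, -0.50 to 0.12 for Tgfbr3, -0.55 to 0.84 for Bambi and -0.17 to 0.26 for Smad1. With the stricter filter Bmper was at -0.00998 and Smad1 at -0.044. With library totals Twsg1 was at 0.013 and Bambi at 0.018, with DESeq2 Twsg1 at 0.037, Acvr1 at 0.0024 and Bambi at 0.015, and with no filter Twsg1 at 0.033 and Bambi at 0.0101. Bambi was at 0.18 with limma-voom and at 0.12 with the replicate block.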
